A study of Homo sapiens with 6 samples.

Results

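Centriole duplication is carried out by a small set of proteins that gather around the kinase PLK4, and 10 of their genes are described here: PLK4, STIL, SASS6, CEP152, CEP192, CENPJ, CEP135, CEP63, CCP110 and CEP57. They were taken by gene symbol, 10 of the 60607 genes and 102 of the 234326 transcripts quantified. The set was selected on its estimated counts in knockdown against control cells, with those values known. Their fold changes are therefore given as a description without p-values. Cells of PLC/PRF/5, an established line of human hepatocellular carcinoma, received siRNAs against SLU7 (siSLU7, 3 libraries) or the negative control siRNA siGL2 (3 libraries), and RNA was taken 48 h later. SLU7 is a splicing factor of the second catalytic step, in which exons are joined, and the comparison asks what its loss does to transcripts. All cells carried an siRNA, no untreated cells were analysed here, and a single cell line was used. The labels call the samples triplicates and say nothing of separate cultures, so errors and p-values measure the spread among these libraries alone, and that spread may be technical.

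A cycling cell builds a single new centriole beside each old one, once per cycle. CEP192 and CEP152 hold PLK4 on the wall of the parent centriole, PLK4 phosphorylates STIL, and STIL brings in SASS6, whose rods form the cartwheel that sets the symmetry of the new centriole. CENPJ and CEP135 join that cartwheel to microtubules, CCP110 caps the growing end, and CEP63 and CEP57 belong to the ring around the parent centriole. PLK4 marks itself for destruction by the ubiquitin ligase SCF with its subunit beta-TrCP, and too much of it gives extra centrioles.

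PLK4 lies on chromosome 4 (chr4:127880861-127899195, plus strand, GENCODE 29 on GRCh38). The transcripts to which its reads were assigned differ at the first exon and at exon 3, and the sequences below mark those places. In the first 4, 15 bases before a splice junction are in lower case and 15 bases after it in capitals, 5′ to 3′ on the plus strand.
PLK4-210 exon 1 to exon 2: gggaaggcgggacagGATTTTAAAGTTGGA
PLK4-209 exon 1 to exon 2: ggggagaagatcgagGATTTTAAAGTTGGA
PLK4-210 exon 2 to exon 3: gttgcaatcaaaatgATAGATAAGAAAGCC
PLK4-209 exon 2 to exon 3: gttgcaatcaaaatgCTTTATAACTATTTT
PLK4-210 exon 3: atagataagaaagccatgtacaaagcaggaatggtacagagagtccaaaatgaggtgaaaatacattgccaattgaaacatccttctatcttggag

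PLK4-210 begins with a downstream first exon of 139 bases (chr4:127881232-127881370), whereas 6 other PLK4 transcripts begin with an upstream first exon that ends at position 127881164. PLK4-209 has the upstream first exon and skips exon 3, the 96 bases printed last (chr4:127883262-127883357), so its second junction runs from exon 2 into the exon that follows. The annotated reading frame of PLK4-210 opens at an ATG in exon 2, the last 3 lower-case letters of its second junction, and has 929 codons. The full-length PLK4-201 opens in its first exon and has 970 codons, and PLK4-209 has 938. The kinase domain lies at the amino-terminal end of PLK4, so the annotated frame of PLK4-210 lacks its first codons. PLK4-209 keeps the start in the first exon but lacks the codons of exon 3, near the same end. RefSeq (GRCh38.p14) also places a start site at the first base of PLK4-210, so the bases before each start are shown for comparison, in lower case as no part of them is singled out.
PLK4 before the upstream start, chr4:127880643-127880860: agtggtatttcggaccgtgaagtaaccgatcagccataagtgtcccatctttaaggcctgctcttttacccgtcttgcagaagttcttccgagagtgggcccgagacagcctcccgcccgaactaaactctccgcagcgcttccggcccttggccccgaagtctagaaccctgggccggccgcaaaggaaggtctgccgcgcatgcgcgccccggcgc
PLK4 before the downstream start, chr4:127881165-127881231: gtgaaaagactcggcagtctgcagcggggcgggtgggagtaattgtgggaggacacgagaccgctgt

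The 300-base RefSeq windows around annotated start sites, 250 bases before and 50 after, were searched on both strands for 2 short promoter elements, and in the members no match of one overlapped a match of the other. The CCAAT box (CCAAT) stood in windows of 5 of the 9 members with an entry, PLK4, STIL, CEP152, CEP192 and CEP57, which is 6 of the members' 13 windows, and in 34.6% of all 34943 windows. The cell cycle element CHR (TTTGAA) stood in those of PLK4, CEP152, CEP192, CEP135 and CEP57, 5 of the 13 windows, and in 15.2% of all windows. In PLK4 the CHR letters were at the upstream start and the CCAAT letters at another annotated start further down, and neither was found in the window of the downstream start. These are letter matches in fixed windows and say nothing of binding.

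The siSLU7 libraries held 5191452 to 6315740 estimated counts and the siGL2 libraries 7736584 to 8693977, and the 10 members took 0.0343% to 0.0402% of the counts in siSLU7 libraries against 0.0232% to 0.0272% in siGL2 libraries. Mitochondrial ribosomal RNA took 29.9% to 35.3% of counts in siSLU7 libraries and 16.8% to 24.1% in siGL2 libraries, and the 7SL genes RN7SL1 and RN7SL2 took 7.69% to 10.1% in siSLU7 libraries and 14.8% to 22.02% in siGL2 libraries. The part of these RNAs in the results was not tested. SiGL2 replicate 1 and siSLU7 replicate 3 were taken to stand apart from the other libraries after the data were seen, and no measure of this is given here. Results without them are given where they differ. SLU7 itself averaged 9.38 ± 1.08 CPM (estimated counts scaled to a common library size) in siSLU7 cells and 18.8 ± 1.89 CPM in siGL2 cells (SD, n = 3 each), a log2 fold change of -1.0 (SE 0.18, edgeR quasi-likelihood test, Benjamini-Hochberg adjusted p = 0.0139), with no overlap of the groups. It did not pass without siSLU7 replicate 1 or 2, and on TPM, the deposited scale per transcript length, its log2 change was -0.06, or -0.41 relative to the median gene. All 8 hepatocyte and epithelial markers, among them APOB and SERPINA1, were detected, with summed levels of 17620 to 23960 CPM in siSLU7 libraries and 19105 to 29764 CPM in siGL2 libraries. The 8 markers of blood, stromal and endothelial cells summed to 24.0 to 28.8 CPM in siSLU7 libraries and 24.0 to 32.3 CPM in siGL2 libraries, mostly CD68, and VWF and CD3E were at 0 in every siSLU7 library. PTPRC, a leukocyte marker, had 1.5 to 2.03 CPM in siSLU7 libraries and 0.377 to 0.511 CPM in siGL2 libraries. That rests on only 12, 11 and 8 estimated counts in siSLU7 libraries and 3, 3 and 4 in siGL2 libraries. Of the 4 markers of this list that were tested, PTPRC alone passed.

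Over the 10 members, PLK4, STIL, SASS6, CENPJ and CCP110 were higher in siSLU7 cells past the threshold of the test over all genes, and none was lower past it. All 10 had passed the filter on low counts. The same test called 13.9% of the 17109 tested genes, with 5.93% of the tested genes higher and 7.93% lower. Nothing is read from the members' count of 5, because the same contrast chose them. The same holds for the calls of single members, in this fit and in the others, which are given as a description. The median log2 fold change was 0.53 over the members and -0.01 over all tested genes. In 6 members every siSLU7 library was above every siGL2 library, as in 17.8% of all tested genes, and in 1, CEP63, every siSLU7 library was below, as in 18.8%. Together 36.6% of all tested genes had groups that did not overlap. In bulk RNA, more cells of a kind and more RNA per cell cannot be told apart. Without siSLU7 replicate 2 no member was called, nor was any other gene, although 4244 genes, 5 members among them, had an unadjusted p under 0.05 there in edgeR. The number of members called was 1 without siSLU7 replicate 1, 2 without siSLU7 replicate 3, 6 without siGL2 replicate 1, 1 without siGL2 replicate 2 and 2 without siGL2 replicate 3. The number called among all genes also moved widely between these fits, as given in the closing section, so nothing is read from these counts.

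**Figure D1:**
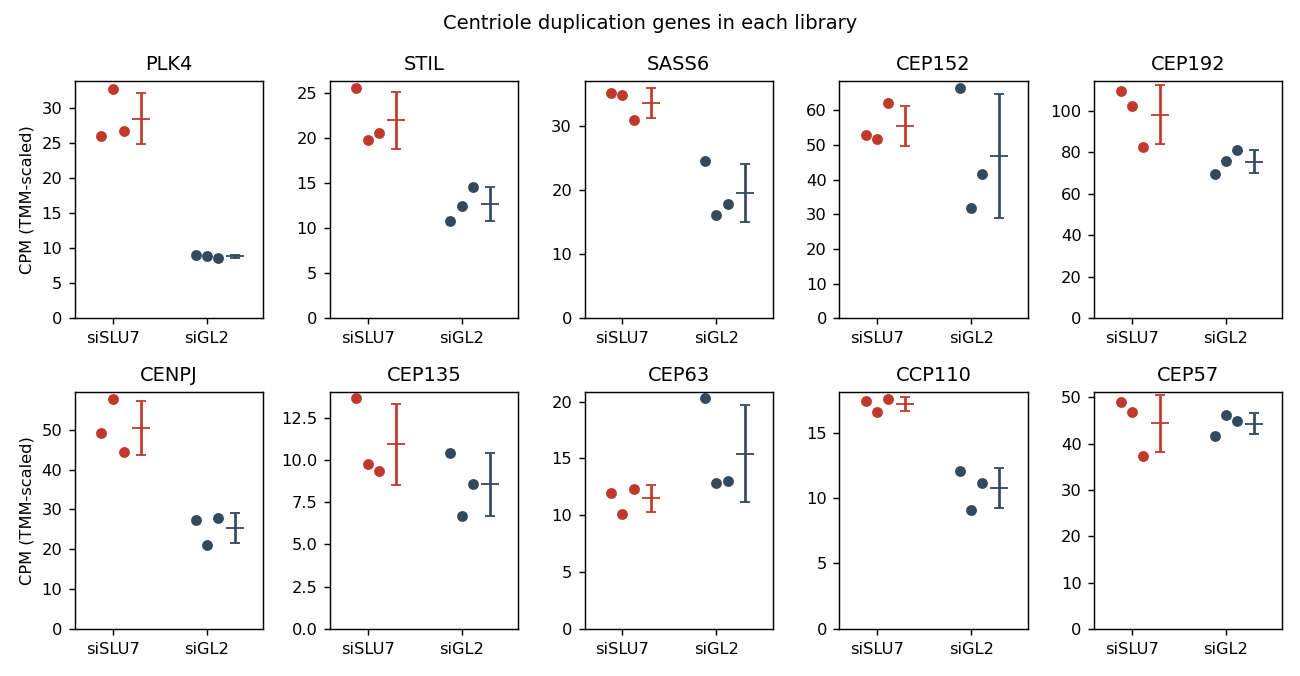
Level of each member in CPM scaled by the TMM method (y axis, from 0) in the 3 siSLU7 and 3 siGL2 libraries, with points for libraries and the mean ± SD beside them. PLK4 sits at 26.0 to 32.6 CPM in siSLU7 libraries and at 8.56 to 9.05 CPM in siGL2 libraries, while CEP57 overlaps between the groups.

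PLK4, the kinase that starts duplication, had the largest change of the 10. Its levels were 26.0, 32.6 and 26.7 CPM in siSLU7 libraries, against 9.05, 8.84 and 8.56 CPM in siGL2 libraries. The siGL2 libraries were nearly level with each other, and the lowest siSLU7 library was well above them. These came from 169, 177 and 143 estimated counts in siSLU7 libraries and 72, 66 and 67 in siGL2 libraries, so PLK4 was a thinly covered gene. The log2 fold change was 1.69 (SE 0.17), a 3.22-fold difference, between 1.58 and 1.75 when any 1 library was left out and 1.72 with offsets for transcript length. It was called in 5 of those 6 fits and not without siSLU7 replicate 2.

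CEP192 and CEP152 are the scaffolds that bring PLK4 to the parent centriole. CEP192 (chr18:12991362-13125052, plus strand) had 109.7, 102.5 and 82.4 CPM in siSLU7 libraries, against 69.7, 75.8 and 81.0 CPM in siGL2 libraries. The groups did not overlap, but siSLU7 replicate 3 was close to siGL2 replicate 3. Its log2 fold change of 0.38 (SE 0.16) was not called, passed without the 2 libraries that stood apart (0.44), and was 0.11 with offsets for transcript length. CEP152 (chr15:48712928-48811146, minus strand) had 52.8, 51.6 and 62.0 CPM in siSLU7 libraries, against 66.6, 31.9 and 41.7 CPM in siGL2 libraries. Here siGL2 replicate 1 was the highest of all 6 libraries, and the groups overlapped. The log2 fold change was 0.25 (SE 0.25), between 0.02 and 0.59 when any 1 library was left out, passing only without siGL2 replicate 1, and -0.20 with offsets for transcript length.

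Much of the CEP152 spread sat in a single short transcript. CEP152-208, a retained-intron transcript of 253 bases, had 63.6, 46.6 and 78.8 estimated counts in siSLU7 libraries and 222.0, 52.8 and 58.6 in siGL2 libraries. With that transcript left out, a choice made after its values were seen, CEP152 had 43.0, 43.0 and 47.3 CPM in siSLU7 libraries, against 38.7, 24.8 and 34.2 CPM in siGL2 libraries. The groups then did not overlap, with means of 44.4 ± 2.49 CPM in siSLU7 cells and 32.6 ± 7.08 CPM in siGL2 cells (SD, n = 3 each). Of the 4 annotated genes whose spans overlap that of CEP152, 3 lie on the opposite strand, and the strand setting of the counting is not given in the sources used here.

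STIL and SASS6 form the cartwheel that PLK4 starts. STIL (chr1:47250139-47314147, minus strand) had 25.5, 19.7 and 20.6 CPM in siSLU7 libraries, against 10.8, 12.5 and 14.6 CPM in siGL2 libraries. SASS6 (chr1:100083563-100132955, minus strand) had 35.2, 34.8 and 31.0 CPM in siSLU7 libraries, against 24.6, 16.1 and 17.9 CPM in siGL2 libraries. Neither gene overlapped between the groups, and the siGL2 libraries of SASS6 were spread more widely than its siSLU7 libraries. The log2 fold change was 0.80 (SE 0.19) for STIL and 0.79 (SE 0.19) for SASS6, or 1.74-fold and 1.72-fold. Of the 6 fits with 1 library left out, each gene was called in 1, the fit without siGL2 replicate 1, and with offsets for transcript length, where neither was called, the changes were 1.11 for STIL and 0.73 for SASS6.

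CENPJ, CEP135 and CCP110 act as the new centriole grows. CENPJ, which sets the length of the centriole's microtubules (chr13:24882284-24922889, minus strand), had 49.1, 57.7 and 44.3 CPM in siSLU7 libraries, against 27.3, 21.0 and 27.9 CPM in siGL2 libraries. The log2 fold change was 0.99 (SE 0.18), with no overlap. It was not called without siGL2 replicate 2, siSLU7 replicate 1 or siSLU7 replicate 2, and was called with offsets for transcript length (1.06). CCP110, the cap protein (chr16:19523811-19553408, plus strand), had 17.4, 16.6 and 17.6 CPM in siSLU7 libraries, against 12.1, 9.11 and 11.1 CPM in siGL2 libraries. Its siSLU7 libraries lay close together and above all siGL2 libraries, with a log2 fold change of 0.67 (SE 0.18). CCP110 was called only without siGL2 replicate 1 among the fits with 1 library left out, and its change was 0.36 and not called with offsets for transcript length. CEP135, which links cartwheel and microtubules (chr4:55948871-56033363, plus strand), had 13.7, 9.77 and 9.34 CPM in siSLU7 libraries, against 10.4, 6.70 and 8.56 CPM in siGL2 libraries. Those ranges overlapped, and the log2 fold change of 0.36 (SE 0.24) was not called. It was 0.15 without siSLU7 replicate 1 and 0.20 without siGL2 replicate 2, and reached 0.52 without siGL2 replicate 1.

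CEP63 and CEP57, of the ring around the parent centriole, were not higher past the test. CEP63 (chr3:134485721-134575017, plus strand) had 12, 10.1 and 12.3 CPM in siSLU7 libraries, against 20.4, 12.9 and 13.0 CPM in siGL2 libraries. The groups did not overlap, but siGL2 replicate 1 stood above the other siGL2 libraries. The log2 fold change was -0.42 (SE 0.23), and -0.17 without that library. CEP57 (chr11:95789965-95832693, plus strand) had 48.9, 46.8 and 37.4 CPM in siSLU7 libraries, against 41.7, 46.2 and 44.9 CPM in siGL2 libraries, with a log2 fold change of 0.00 (SE 0.15). The span of CEP63 shares 996 bases with that of ANAPC13 and the span of CEP57 shares 445 with that of FAM76B, both on the opposite strand, so reads there may belong to either gene.

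**Figure D2:**
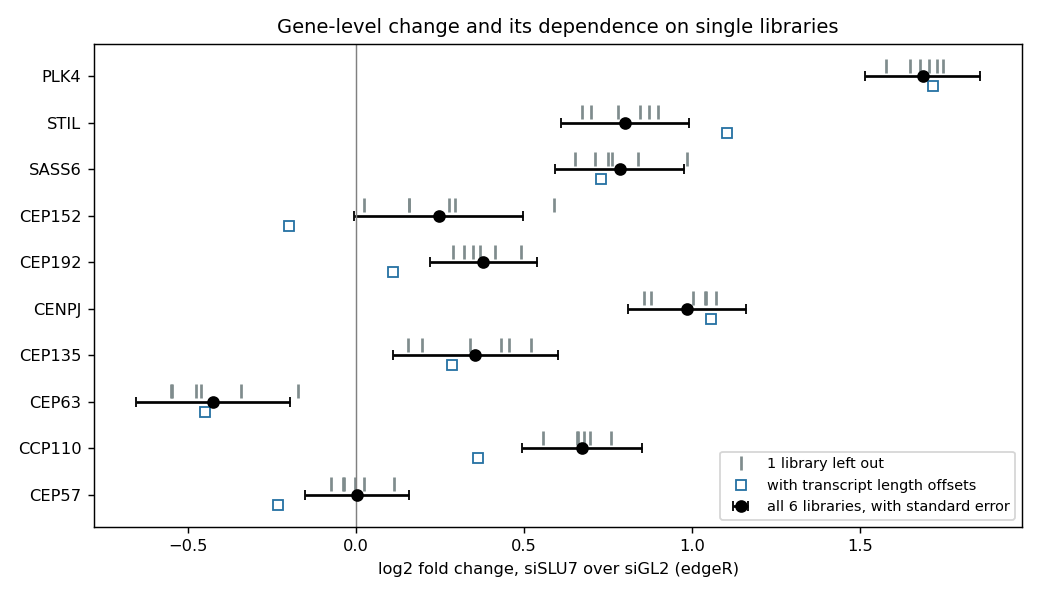
Log2 fold change of each member, siSLU7 over siGL2 (x axis), with circles and bars for the edgeR estimate and its standard error over all 6 libraries, ticks for fits with 1 library left out and squares for the fit with transcript length offsets. PLK4 stays between 1.58 and 1.75, while CEP152 and CEP57 fall on either side of 0.

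Per transcript length, the members stood in another order. In TPM, siSLU7 cells averaged 76.4 ± 19.2 for CEP152, of which 58.9 ± 18.7 was the 253-base CEP152-208, then 23.9 ± 3.53 for CEP57, 12.8 ± 2.03 for PLK4, 12.1 ± 2.41 for CEP192 and 8.63 ± 1.32 for CENPJ (SD, n = 3). The other 5 members averaged 2.16 to 5.54 TPM there. Of the PLK4 TPM, protein-coding transcripts took 38.6% ± 8.5 in siSLU7 cells and 42.9% ± 17.1 in siGL2 cells (SD, n = 3 each). The rest in siSLU7 cells was in PLK4-208, of 538 bases, and in retained-intron transcripts of 571 and 632 bases. In siGL2 cells PLK4 averaged 2.70 ± 1.09 TPM, level within the spread with CENPJ at 2.89 ± 0.92 and SASS6 at 2.31 ± 0.72 TPM. PLK4 and CEP192 did not differ beyond their spread in siSLU7 cells. On this scale the median gene shifted by 0.35 in log2(TPM + 1), and 95.2% of the genes called by limma were higher, against 42.8% of those called on counts. Relative to that shift PLK4 was 1.57 higher, CENPJ 0.97, STIL 0.88 and SASS6 0.65. These were the 4 members called there, but the test was of their uncorrected changes (1.925, 1.327, 1.23 and 1.004). Changes relative to the shift were not tested. CEP63 was -0.23 relative to the shift, where without the correction it was 0.12.

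Most of the additional PLK4 reads were assigned to PLK4-210, the transcript with the downstream first exon. It had 116.2, 148.6 and 90.7 estimated counts in siSLU7 libraries, against 0, 0 and 34.4 in siGL2 libraries. Its share of all PLK4 counts was 68.7%, 83.9% and 63.5% in siSLU7 libraries, against 0%, 0% and 51.4% in siGL2 libraries, so siGL2 replicate 3 was nearer to the siSLU7 libraries than to its own group. The 6 transcripts with the upstream first exon together had 42.8, 16.5 and 51.3 estimated counts in siSLU7 libraries, against 64.9, 66.0 and 30.4 in siGL2 libraries, and these ranges overlapped. PLK4-209, without exon 3, had 0, 0 and 16.4 estimated counts in siSLU7 libraries, against 41.5, 34.6 and 25.0 in siGL2 libraries. The short PLK4-208, of 538 bases and the upstream first exon, had 10.0, 16.5 and 28.0 in siSLU7 libraries, against 3.89, 0 and 5.45 in siGL2 libraries.

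The division of PLK4 reads between transcripts is uncertain. PLK4-210 shares 2825 of its 3060 bases with PLK4-209, and the deposited files hold no repeated estimates that would give the error of the split. The usage test, which asks whether a gene's transcripts change relative to each other (edgeR diffSpliceDGE with the Simes method), called 257 of 8869 genes, 2.9%, and none of the 10 members. PLK4 had an adjusted p of 0.767 in it, on 3 tested transcripts. At transcript level no member among its 40 tested transcripts was called, nor any of the 43128 transcripts tested in all (edgeR, smallest adjusted p 0.0994). An unadjusted p under 0.05 was found for 6956 of the 43128 and for 4 of the members' 40. The 4 were PLK4-208 and CENPJ-205, higher in siSLU7 cells, and CEP152-203 and CEP192-208, lower. The members were chosen on counts per transcript in the same contrast, so these 4 are a description and nothing is read from them.

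**Figure D3:**
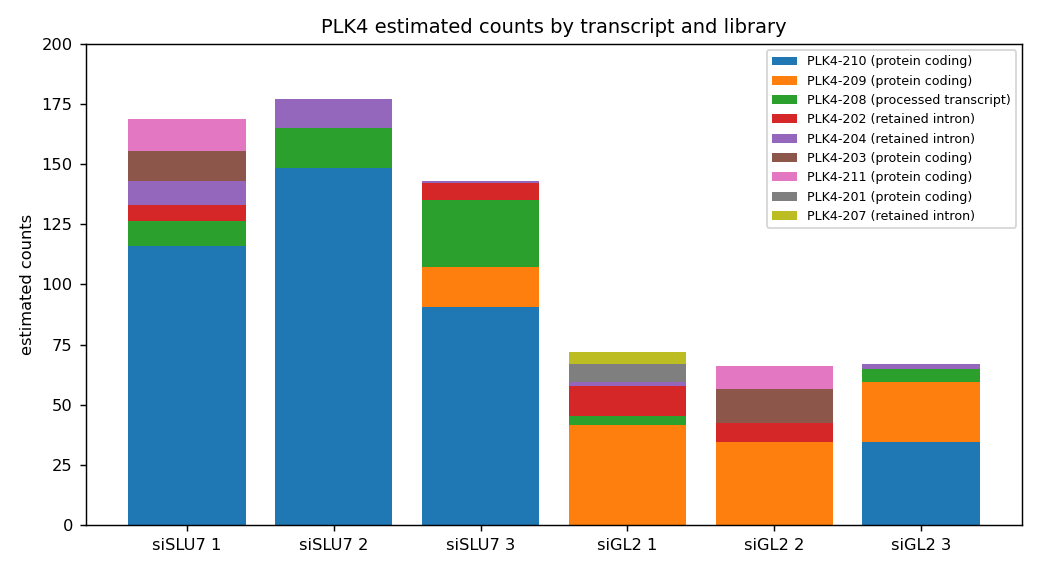
Estimated counts of PLK4 (y axis) in each of the 3 siSLU7 and 3 siGL2 libraries, stacked by the transcript to which they were assigned. PLK4-210 takes 90.7 to 148.6 counts in siSLU7 libraries and 0 to 34.4 in siGL2 libraries.

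**Figure D4:**
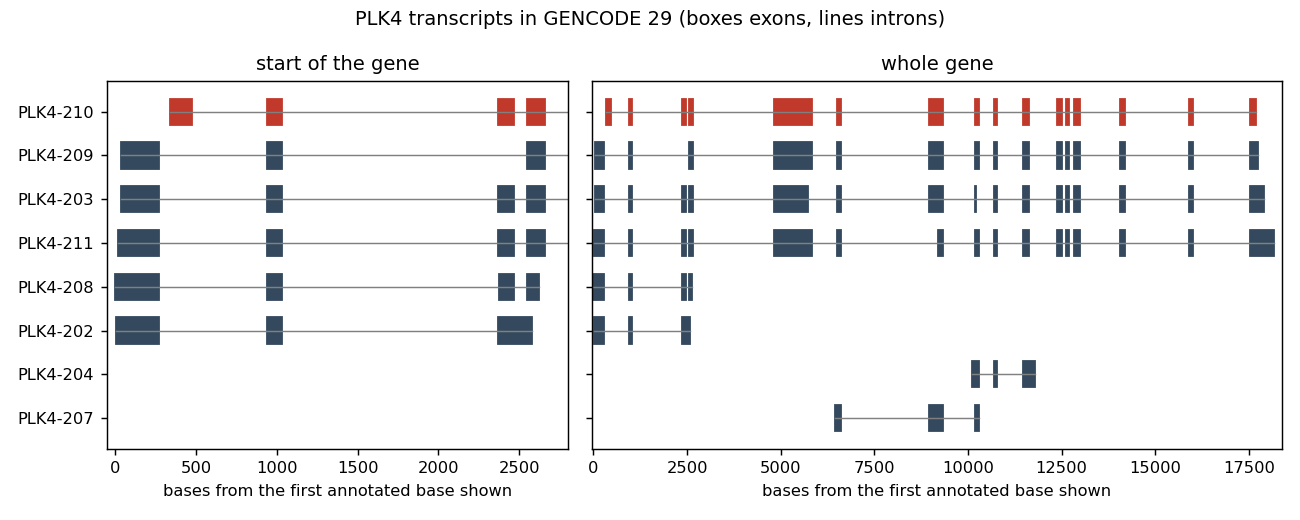
Exons (boxes) and introns (lines) of 8 PLK4 transcripts in GENCODE 29, with distance in bases from the first annotated base shown (x axis), the start of the gene at the left and the whole gene at the right. PLK4-210, in red, has its own first exon of 139 bases, and PLK4-209 lacks exon 3.

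Introns that splicing normally removes stay in transcripts typed as retained-intron, and the members differed in how much of their counts these took. Over all genes with a protein-coding transcript, retained-intron transcripts took 13.6%, 13.3% and 13.4% of counts in siSLU7 libraries, against 10.4%, 9.67% and 10.0% in siGL2 libraries. CCP110 went the other way, with 12.6%, 13.7% and 14.0% in siSLU7 libraries, against 26.1%, 32.3% and 21.4% in siGL2 libraries. Its protein-coding share was 83.9% ± 2.5 in siSLU7 cells and 70.3% ± 5.3 in siGL2 cells (SD, n = 3 each), carried mainly by CCP110-203 with 92.6, 60.9 and 63.1 estimated counts in siSLU7 libraries and 59.6, 14.9 and 47.5 in siGL2 libraries. CEP57 had a retained-intron share of 18.0%, 19.1% and 19.9% in siSLU7 libraries, against 13.8%, 11.5% and 12.6% in siGL2 libraries. In PLK4, STIL, CEP152, CEP135 and CEP63 the shares of the groups overlapped, and SASS6, CEP192 and CENPJ had no counts in transcripts of this type. These shares were not tested and rest on between 50 and 530 counts per gene and library, of which retained-intron transcripts hold a part. CCP110-206, the leading one in CCP110, had 9.32, 5.24 and 5.88 estimated counts in siSLU7 libraries, against 19.2, 13.1 and 8.87 in siGL2 libraries. How many of all genes had shares that did not overlap was not counted, so nothing is read from CCP110 and CEP57.

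Transcripts typed as subject to nonsense-mediated decay, the destruction of mRNA with an early stop codon, made up most of CENPJ. CENPJ-205, of that type, had 225.3, 244.5 and 168.5 estimated counts in siSLU7 libraries, against 182.7, 145.3 and 186.7 in siGL2 libraries, and held 78.9% of the gene's mean count. CENPJ-206, also of that type, had 6.79, 63.1 and 65.2 in siSLU7 libraries, against 0, 11.7 and 30.2 in siGL2 libraries. The coding CENPJ-201 was seen mainly in the first replicates, with 75.6, 0 and 0.01 estimated counts in siSLU7 libraries and 29.8, 0 and 0 in siGL2 libraries. None of the 4 leading transcripts of CEP192 was called, and their counts, which follow, are not scaled for library size. Of the decay transcripts, CEP192-208 had 43.5, 27.3 and 36.7 estimated counts in siSLU7 libraries, against 71.6, 73.6 and 94.8 in siGL2 libraries, and CEP192-211 had 52.1, 66.8 and 38.1 in siSLU7 libraries, against 27.4, 48.6 and 51.2 in siGL2 libraries. Of the coding ones, CEP192-214 had 245.9, 140.2 and 147.0 in siSLU7 libraries, against 203.8, 254.9 and 288.9 in siGL2 libraries, and CEP192-203 had 213.6, 306.2 and 153.7 in siSLU7 libraries, against 219.8, 107.6 and 192.3 in siGL2 libraries.

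STIL, SASS6 and CEP63 each had a leading coding transcript. STIL-204, the main coding form, had 79.0, 70.1 and 55.2 estimated counts in siSLU7 libraries, against 44.1, 53.9 and 66.5 in siGL2 libraries. SASS6-201 had 178.6, 126.2 and 95.5 in siSLU7 libraries, against 165.1, 75.6 and 77.9 in siGL2 libraries. Both ranges overlapped on counts that are not scaled for library size. CEP63-215 had 27.3, 20.4 and 42.1 in siSLU7 libraries, against 103.8, 46.3 and 29.04 in siGL2 libraries, with siGL2 replicate 1 again the highest.

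**Figure D5:**
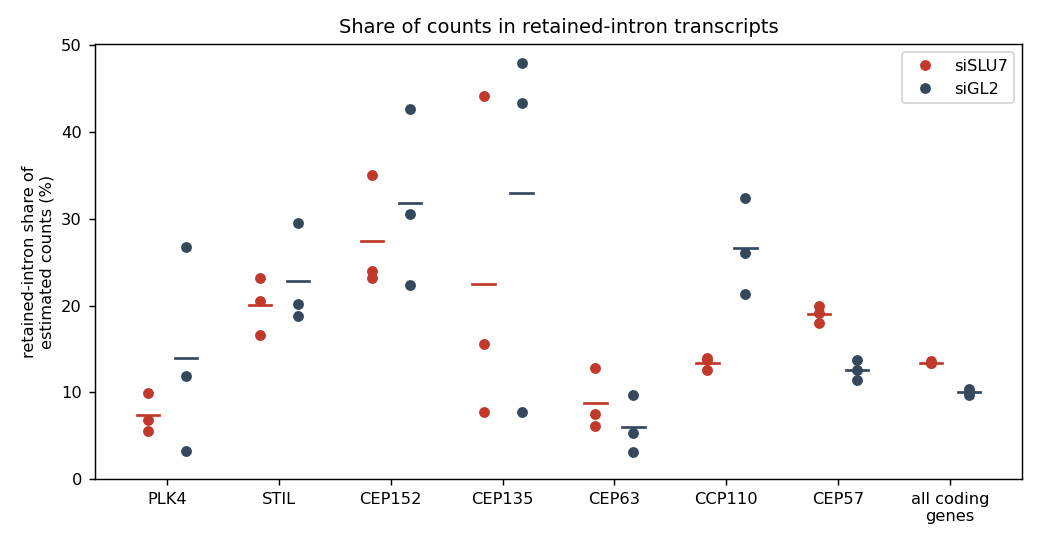
Share of estimated counts in retained-intron transcripts in percent (y axis) for the members with such counts and for all genes with a protein-coding transcript, with points for libraries and lines for the means of 3 siSLU7 and 3 siGL2 libraries. CCP110 is lower in every siSLU7 library, while CEP57 and all coding genes are higher.

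Of 78 further centrosome genes in 6 lists, 6 were higher and 4 lower in siSLU7 cells past the test over all genes, and the median log2 fold change was 0.13. That is 12.8% of the 78 called, 7.69% higher and 5.13% lower, against 13.9% of all tested genes, 5.93% higher and 7.93% lower, so the count is near that over all genes. Among the 10 genes that control PLK4 or STIL, 1 was called, CEP85, which helps STIL activate PLK4 and averaged 41.7 ± 4.36 CPM in siSLU7 cells and 26.8 ± 1.82 CPM in siGL2 cells (log2 fold change 0.64, SE 0.15, edgeR adjusted p = 0.0284). The other 9 were not called, with CDK1 at 0.83 (adjusted p = 0.0664), PLK1 at 0.63 (0.0678) and CUL1 of the SCF ligase at 0.49 (0.0571). BTRC and FBXW11, the subunits that recognise PLK4 for destruction, had log2 fold changes of 0.02 (SE 0.23) and -0.03 (SE 0.24).

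Among 23 genes of centriole assembly and elongation, 2 were higher and none lower. HYLS1, a centriole protein needed for cilia, averaged 7.47 ± 0.97 CPM in siSLU7 cells and 4.0 ± 0.73 CPM in siGL2 cells (log2 fold change 0.90, adjusted p = 0.0447), and KIF24, a kinesin that acts with CCP110, averaged 28.2 ± 0.37 CPM in siSLU7 cells and 19.0 ± 2.59 CPM in siGL2 cells (0.57, adjusted p = 0.0479). Of the 6 fits with 1 library left out, HYLS1 was called in 0 and KIF24 in 1. The pericentriolar list of 19 had 3 higher and 2 lower. Members of the gamma-tubulin ring moved in both directions. TUBGCP4 was higher by 1.05 (adjusted p = 0.00992) and TUBGCP5 by 0.75 (adjusted p = 0.0308), and TUBGCP6 was lower at -0.70 (adjusted p = 0.0271), although its change was 0.02 with length offsets and 0.10 relative to the median gene on TPM. TUBG1, gamma-tubulin itself, averaged 48.5 ± 9.58 CPM in siSLU7 cells and 74.6 ± 2.51 CPM in siGL2 cells (-0.62, adjusted p = 0.0408), with reads that may be shared with its close copy TUBG2. TACC3, a spindle protein, averaged 36.0 ± 4.57 CPM in siSLU7 cells and 19.5 ± 2.29 CPM in siGL2 cells (0.88, adjusted p = 0.0157).

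Of 10 appendage genes 1 was lower, ODF2, at 46.4 ± 7.05 CPM in siSLU7 cells and 74.9 ± 12.3 CPM in siGL2 cells (-0.69, adjusted p = 0.0364). None of 9 satellite genes was called by edgeR, where CEP20 came nearest with 1.06 (adjusted p = 0.0547), and it was called by DESeq2 (adjusted p = 0.0373). Of 7 genes that sense extra or missing centrosomes, 1 was lower, TP53BP1, which acts with USP28 to arrest cells after a long mitosis and averaged 60.8 ± 6.82 CPM in siSLU7 cells and 98.8 ± 8.76 CPM in siGL2 cells (-0.70, adjusted p = 0.0217). Without siSLU7 replicate 2 none of the 78 was called (22 at an unadjusted p under 0.05). The number called was 23 without siGL2 replicate 1, 19 of them higher, and 1 to 5 without any other single library. Calls among all genes also moved widely between these fits, as given in the closing section, so nothing is read from these counts. With length offsets TUBGCP4 alone was called (1.47, edgeR adjusted p = 0.0226). There CEP85 (0.72), TACC3 (0.89), HYLS1 (0.77), KIF24 (0.51), TUBGCP5 (0.53), ODF2 (-0.65) and TP53BP1 (-0.59) kept their direction without passing. On TPM ODF2 and TP53BP1 were not called, in a test of their uncorrected changes (-0.08 and -0.03). Relative to the median gene these were -0.43 and -0.39, which was not tested. In the usage test 2 of the 62 pathway genes tested were called, against 257 of 8869, or 2.9%, over all genes. The count is near that share, and nothing is read from it. By that test the 2 were C2CD3, which elongates centrioles (adjusted p = 0.0107), and TACC3 (adjusted p = 0.0167).

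Cell cycle genes were described from lists of 14 each, of which 7.14% were called higher, against 5.93% of all tested genes. Of the S phase genes 1 was called, CDC6, a replication licensing factor, with 90.4 ± 13.7 CPM in siSLU7 cells and 44.4 ± 11 CPM in siGL2 cells (1.02, adjusted p = 0.0195), and 12 had a positive fold change, with a median of 0.35. Of the genes of G2 and mitosis 1 was called, TPX2, a spindle assembly factor, with 211.6 ± 43.2 CPM in siSLU7 cells and 115.0 ± 31.1 CPM in siGL2 cells (0.88, adjusted p = 0.0415), and all 14 had a positive fold change, with a median of 0.41. Of all tested genes 49.6% had a positive fold change, with a median of -0.01. With 1 library left out, CDC6 and TPX2 were called in 1 of 6 fits, that without siGL2 replicate 1. Several members are transcribed in a cell cycle dependent way, and the part of cell cycle stage in their change was not tested.

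The genes most like PLK4 across the 6 libraries, by Pearson likeness of log2 CPM among 12559 protein-coding genes compared, were CDC7 (0.996), a kinase that fires replication origins, CCDC137 (0.995), TIMM23B (0.994), ZNF200 (0.994) and LIN7C (0.993). TIMM23B has a near-identical copy, TIMM23, and its reads may be shared. Among the members CENPJ (0.959) and CCP110 (0.928) were most like PLK4, and CEP57 (0.01) and CEP63 (-0.66) were least like it. The libraries fall into 2 groups, so these values mostly restate the difference between the groups.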

How the data were processed

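PolyA RNA of 6 libraries was sequenced from ScriptSeq mRNA-Seq kits, per the labels' protocols. The submitters' processing notes name kallisto 0.46.1, sleuth 0.30.0, Trimmomatic 0.38, FastQC 0.11.8 and the build GRCh38, without saying what each was used for. The authors deposited estimated counts per transcript, not normalized and not whole, per the file headers. The deposited TPM values relate these counts to effective transcript length, per the file headers. A strand setting is not given in the sources used here and the files hold no repeated estimates, so antisense overlaps and the splitting of reads between similar transcripts carry an error that was not modelled.

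Estimated counts were summed to 60607 genes (159 records of chromosome Y copies were merged with X) and rounded. edgeR 4.0.16 in R 4.3.3 was used with TMM scaling, filterByExpr (a count of 10, a total of 15), the quasi-likelihood test of 3 siSLU7 against 3 siGL2 libraries and Benjamini-Hochberg adjustment at 0.05 over all genes or transcripts. CPM are on TMM-scaled library sizes. The tests were checked on simulated data. Alternatives were DESeq2 1.42.0, RLE size factors, either no filter or a stricter one (mean of 1 CPM and a count of 10 in 3 libraries), a block for the replicate number, fits without each library in turn, length offsets, shares of TPM, and limma 3.58.1 on log2(TPM + 1) and log2(TPM + 0.1). Leaving out the 2 libraries that stood apart was chosen after seeing the data. PLK4, STIL, CEP135, CEP63 and CCP110 had under 200 counts in every library, which limits their precision.

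The members and gene lists were chosen with earlier results of these data known. Named were all members, up to 4 called genes per centrosome list with the smallest p, or the nearest 1 if none was called, up to 2 per cell cycle list, the 5 genes and 2 members most like PLK4, and up to 4 transcripts per member by mean count of at least 5. CDK1, PLK1, CUL1, BTRC, FBXW11, TUBG1, C2CD3, PTPRC, PLK4-201, CEP57 and CEP63 in the likeness, and the called usage genes were named after their values were seen. Coordinates come from GENCODE 29, in which 89 of the 102 member transcripts have the same version and length, and promoter windows from RefSeq (GRCh38.p14), which had entries for 9 members.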

Additional observations from a re-analysis of the deposited data

How the results depend on the processing

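RLE size factors, no filter, the stricter filter and DESeq2 left between 4 and 5 members called and between 10 and 12 of the 78 pathway genes. Leaving out 1 library gave 0 to 4457 called genes, 0 to 6 members, 0 to 23 pathway genes and 156 to 808 genes with changed usage. Length offsets gave 963 genes, 2 members (PLK4 and CENPJ) and 1 pathway gene. On TPM 26 pathway genes were called with either pseudocount, all higher, with the median gene shifted by 0.35 at a pseudocount of 1. Most of all genes called at that pseudocount were also higher, so nothing is read from this count. Without the 2 libraries that stood apart, 5248 genes, 7 members, 31 pathway genes and 865 usage genes were called. After each gene's group mean was taken out of log2 CPM, same-numbered libraries had correlations of -0.41, 0.11 and -0.37. Taking out the group means ties the libraries of a group to each other, so these values cannot show whether the replicate numbers pair the samples. With the replicate block edgeR called 0 genes, 0 members and 0 pathway genes (4209, 5 and 25 at an unadjusted p under 0.05) and 87 usage genes. In each of these cases the cause was not tested.

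The direction of CEP57 turned with no filter (-0.021), the block (-0.00378), length offsets (-0.23), and without siGL2 replicate 1 (-0.04) or 3 (-0.00331) or siSLU7 replicate 1 (-0.0737) or 2 (-0.0339). With length offsets CEP152 (-0.20) and TUBGCP6 (0.0222) turned, and on TPM with pseudocounts of 1 and 0.1 so did CEP63 (0.12 and 0.15) and TUBGCP6 (0.45 and 0.53). Among transcripts, none of them called, these turned without siGL2 replicate 1, siSLU7 replicate 3 and both: CEP152-204 (1.44, 0.35 and 2.02), CEP63-214 (0.0357, 0.0377 and 0.17) and CCP110-201 (-0.34, -0.24 and -0.84). CEP57-216 turned without siSLU7 replicate 3 (0.28) and without both (0.28), and CEP152-208 without siGL2 replicate 1 (0.45) and without both (0.22). CCP110-201 also turned without siGL2 replicate 3 (-0.34) or siSLU7 replicate 2 (-0.02), CEP57-208 without siGL2 replicate 2 (0.13) and CEP135-202 without siSLU7 replicate 1 (-0.19). Over the fits with 1 library left out, CEP152-208 ran from -0.79 to 0.45, CEP152-204 from -0.79 to 1.44, CEP135-202 from -0.19 to 1.02, CEP63-214 from -0.23 to 0.0377, CCP110-201 from -0.34 to 6.46, CEP57-216 from -1.31 to 0.28, CEP57-208 from -1.66 to 0.13, and the gene CEP57 from -0.0737 to 0.11. Depth limits the transcript results, since members had between 50 and 713 counts per gene and library.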
